A study of Mus musculus with 38 samples.

Results

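The response to depolarization was followed in ribosomes pulled down from mouse cortical neurons with reduced eIF4G2, by comparing 2 pulldown libraries after KCl with 2 pulldown libraries at rest. These 4 libraries, out of 38 in the series, were chosen by their labels alone. Genes of secreted and membrane proteins were described apart from genes of cytosolic proteins. After KCl, beside 10.2% of all genes tested, 28 of 34 immediate early genes, 11 of 16 stress response genes, 13 of 13 mitochondrially encoded genes and 15 of 31 proteasome subunits were higher in these libraries. Among listed genes of secreted and membrane proteins 29.3% were lower and 12.3% higher in the pulldowns, where of all genes tested 12% were lower. Of the same genes 28.8% were lower and 12.8% higher in the inputs. The lists were chosen with earlier results of these data known. Of the listed cytosolic genes 15.9% were lower and 19.7% higher in the pulldowns, so listed genes of both kinds passed the test more often than all genes. Some genes of short secreted or lumenal proteins, such as Cst3 and Npc2, fell in the pulldowns and rose in the inputs of the same knockdown.

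Depolarization by KCl opens voltage-gated calcium channels, and the calcium that enters switches on immediate early genes within minutes. eIF4G2 (also DAP5) resembles the scaffold eIF4G1 but lacks the part that binds the cap-binding protein eIF4E, and it serves initiation on mRNAs that are read with little use of eIF4E. Ribosomes that make secreted and most membrane proteins expose a hydrophobic signal peptide or transmembrane segment as it leaves the ribosome. The signal recognition particle binds it and brings the ribosome to the endoplasmic reticulum (ER), so these mRNAs are read on a membrane, whereas mRNAs of cytosolic proteins are read by free ribosomes. Tail-anchored proteins carry their membrane segment at the C terminus and are inserted after translation ends. In dendrites both kinds of translation occur, and the ER of dendrites reaches many spines.

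The method, PL-Ribo-seq, sequences the mRNA fragments protected by ribosomes (footprints), either from a whole lysate (input) or after streptavidin pulldown of ribosome complexes biotinylated by TurboID, a biotin ligase that marks proteins near it. The neurons were primary cortical neurons of CD-1 mouse embryos, and every group used here expressed TurboID-PSD95, a fusion whose PSD95 (gene Dlg4) elements take it into dendrites. The knockdown groups were KD_pd_Dep, KD_pd_Rest, KD_in_Dep and KD_in_Rest, with 2 libraries each, where pd is the pulldown and in the input. All 8 received 20 nM siRNA against eIF4G2 for 72 h, 30 min of biotin and 2 min of cycloheximide, which stops elongating ribosomes. The depolarized neurons were silenced for 2 h with TTX and DL-AP5, held in 55 mM KCl for 1 h and then silenced again for 30 min. Resting neurons received no KCl, and the labels give silencing for the depolarized groups alone. By the labels, KCl and silencing thus cannot be told apart in what is called the response to KCl here. Untreated TurboID-PSD95 groups of the KCl experiment, with 3 libraries each, served for comparison (REST_PSD95_pd and DEP_PSD95_pd, with their inputs). None of the 38 libraries is labelled as having received a non-targeting siRNA. Knockdown and experiment therefore cannot be told apart in any difference from the untreated groups. For the knockdown pulldowns one label reads cytosol and the label for the virus reads PSD95-TurboID, and the virus label was used. The study's methods describe PL-Ribo-seq replicates as biological for sets of 3, as in the untreated groups. For the 2 libraries of each knockdown group no source used here states separate cultures, so their p-values measure the spread between these libraries, which may be technical. That spread was estimated jointly over the 8 knockdown libraries, inputs included. Replicates differed less in the inputs (chi-square per gene 2.81 at rest and 3.07 after KCl) than in the pulldowns (4.55 and 4.65). The labels do not tie an input to a pulldown of the same culture. The bait is 1 fusion driven by a doxycycline-inducible lentivirus, and its own mRNA cannot be told apart from that of Dlg4.

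Eif4g2 itself was at 282 and 213 CPM (counts scaled to the size of each library) in the resting knockdown pulldowns and at 262 and 229 after KCl, against 341 to 414 and 487 to 517 in the untreated pulldowns at rest and after KCl, on a scale common to the 20 libraries. All 4 knockdown values lay below all 6 untreated values. Within the knockdown pulldowns no change of Eif4g2 passed the test (log2 fold change -0.01, SE 0.118, FDR 0.948). The FDR here and below is the Benjamini-Hochberg adjusted p of the quasi-likelihood test of edgeR over all genes tested, and its threshold was 0.05. The total count of the 4 pulldowns lay between 8367290 and 14979205, of which 2127140 to 4529319 fell in the coding sequence (CDS) of the longest transcript of each gene. The biological coefficient of variation of the knockdown libraries was 0.132, against 0.306 for the untreated ones, and the untreated library DEP_PSD95_pd replicate 1 stood apart, with 355 CPM for Dlg4 against 1404 and 5302 CPM in its replicates. Of the 10 listed markers of neurons, 1, the tubulin Tubb3, was lower after KCl and the others did not pass the test, and with Tubb3 the summed level of the list fell from between 7095.1 and 7259.6 CPM to between 5381.1 and 5384.7 CPM. Astrocyte markers were also present, at 872.3 to 1007.2 CPM in sum at rest and 1183.3 to 1509.4 CPM after KCl, with 6 of 11 tested higher, 1 lower (Gfap) and S100b at 0. The part of astrocytes in the results below was not tested, and in bulk samples fewer cells of a type and less RNA per cell cannot be told apart. In the pulldowns markers of microglia reached at most 110.0 CPM in sum, of the oligodendrocyte lineage 161.4 CPM, of fibroblasts 99.1 CPM and of endothelial cells 71.5 CPM. In the inputs the fibroblast markers stood at 213.3 to 214.9 CPM at rest and 323.3 to 325.8 CPM after KCl, and the oligodendrocyte markers reached 252.1 CPM.

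Of 12223 genes tested in the knockdown pulldowns, 2711 (22.2%) passed the test, 1242 (10.2%) as higher and 1469 (12%) as lower after KCl. When the spread was taken from the 4 pulldown libraries alone, 815 of 11054 genes were higher and 1051 lower. The 11 lists of secreted and membrane proteins held 411 genes, of which 411 were in the files and 406 passed the filter on low counts. Among these, 119 (29.3%) were lower and 50 (12.3%) higher. Their median log2 fold change was -0.16, where all genes tested had a median of 0.00. In the inputs 117 (28.8%) of these 406 genes were lower and 52 (12.8%) higher, with a median of -0.11, where all genes had 10.3% lower and 8.91% higher. Without 1 of the 4 input libraries these input counts were 78 to 87 lower and 30 to 33 higher. The 8 lists of cytosolic proteins held 317 genes, of which 314 were tested. Here 50 (15.9%) were lower and 62 (19.7%) higher, with a median of 0.06, and in the inputs 66 were lower and 45 higher, or 41 to 49 and 15 to 22 without any 1 input library. Genes whose 2 depolarized libraries both lay below both resting ones made up 28.2% of all genes, and those with both above made up 27.0%.

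The share of CDS footprints on the 411 listed secretory and membrane genes was lower in both depolarized pulldowns than in both resting ones. It was 10.5% in both resting pulldowns and 9.23% and 8.44% in the depolarized ones. The mean was 10.5% ± 0.0355 at rest and 8.83% ± 0.554 after KCl (SD, n = 2 each), a difference of -1.68 percentage points, or 0.840 of the resting share. With 2 libraries against 2, an exact permutation test, two-sided, cannot go below p = 0.333, which is the value it gave. The share of the cytosolic lists was 18.3% in both resting pulldowns and 18.7% and 19.4% after KCl. In the knockdown inputs both shares were lower after KCl, with differences of -1.13 percentage points for the secretory lists and -1.82 for the cytosolic ones. In the untreated pulldowns the secretory share was 13.0%, 13.8% and 13.3% at rest and 13.8%, 11.9% and 12.3% after KCl, and the groups overlapped (exact permutation p = 0.400). Their cytosolic share was 15.0% ± 0.131 at rest and 13.6% ± 0.883 after KCl (SD, n = 3 each), without overlap (exact permutation p = 0.100, the smallest that 3 against 3 allows). For genes with a hydrophobic N terminus, a class read from sequence and described below, the share was 17.0% and 17.5% at rest and 15.6% and 14.6% after KCl in the knockdown pulldowns.

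**Figure D1:**
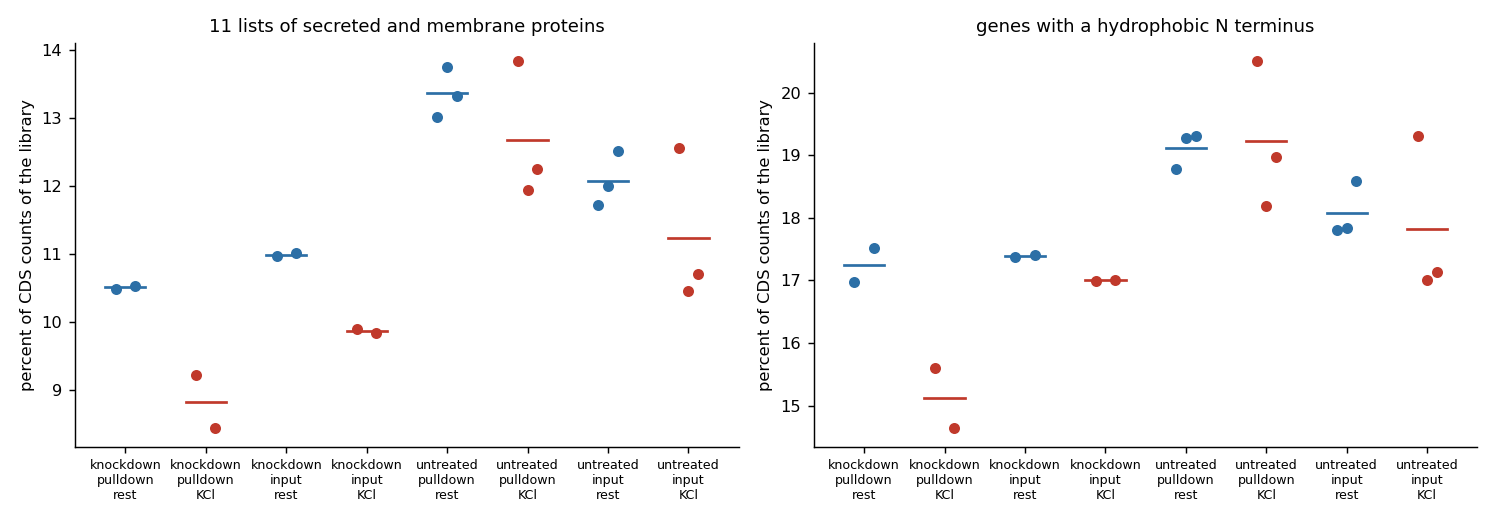
Share of the CDS footprints of a library, in percent (vertical axes, not starting at 0), on the 11 lists of secreted and membrane proteins (left) and on genes with a hydrophobic N terminus (right), with 1 point for each library and a line at the group mean. In the knockdown pulldowns the listed share was 10.5% in both resting libraries and 9.23% and 8.44% after KCl, and in the untreated pulldowns the resting and depolarized libraries overlapped.

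Among the 10 lower genes with the smallest p, 6 encode proteins whose first codons carry a hydrophobic stretch, and none of the 10 higher genes does. Genes with such a stretch made up 15.9% of all genes tested, 25.7% of the lower and 12.6% of the higher genes, so that 157 higher genes carry one. The stretch was looked for in the translated CDS, as 12 residues beginning between residues 2 and 30 with a mean Kyte-Doolittle hydropathy of at least 2.0. These sequences are shown because such a stretch is what the signal recognition particle reads. Each line gives the 10 codons (30 bases) of highest hydropathy near the start, read from the mm10 genome at the deposited coordinates on the coding strand, and in each gene they lie in the first coding exon. Capitals mark codons for A, C, F, I, L, M or V. Fos and Fosb, taken from the higher genes with no hydrophobic segment, are shown for comparison. Both sets were chosen by sequence class, so the contrast between them was fixed in advance.
Bsg (codons 5 to 14, chr10:79704530-79704559, plus strand): CTGCTGCTGGCGCTGGCCTTCacgCTCTTG
Cst3 (codons 8 to 17, chr2:148875327-148875356, minus strand): TTGCTGTTCCTGCTGGCCGTCCTGGCCGTG
Ly6h (codons 9 to 18, chr15:75566145-75566174, minus strand): CTCggtCTGGCGCTGCTGGCCTTGCTTCTC
Olfm1 (codons 3 to 12, chr2:28205956-28205985, plus strand): GTGccgCTGCTGaagATCgggGTCGTGCTA
Acan (codons 5 to 14, chr7:79082207-79082236, plus strand): CTCTTGGTCTTTGTGactCTGaggGTCATC
Adgrl1 (codons 4 to 13, chr8:83915508-83915537, plus strand): TTGGCTGCAGCACTCtggagtCTCTGTGTG
Fos (codons 18 to 27, chr12:85474091-85474120, plus strand): agtagcGCCtccccgGCCggggacagcCTT
Fosb (codons 25 to 34, chr7:19309330-19309359, minus strand): tacCTGtcttcgGTGgactccTTCggcagt
Of the 10 codons, 9 in Bsg, 10 in Cst3, 9 in Ly6h, 7 in Olfm1, 8 in Acan and 8 in Adgrl1 were of this kind, against 3 in Fos and 3 in Fosb.

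Bsg, basigin, the chaperone and partner of monocarboxylate transporters at the plasma membrane, had the smallest p among lower genes. Its level was 1146 and 1682 CPM in the resting pulldowns and 242 and 243 CPM after KCl. Both depolarized libraries lay far below both resting ones (log2 fold change -2.54, SE 0.123, FDR 9.53e-14). Cst3, cystatin C, a secreted inhibitor of cysteine proteases, stood at 659 and 707 CPM at rest and 208 and 192 CPM after KCl (log2 fold change -1.77, SE 0.0981). Ly6h, a GPI-anchored modulator of nicotinic receptors, went from 372 and 414 CPM to 92.1 and 101 CPM (-2.03, SE 0.116). These 3 proteins are short or of medium length, with a CDS of 1170, 423 and 420 nt. Adgrl1, the adhesion receptor latrophilin 1, had 472 and 538 CPM at rest and 111 and 96.3 CPM after KCl (-2.28, SE 0.120). Olfm1, a secreted olfactomedin of synapses, changed by -1.65 and Acan, the core protein of perineuronal nets, by -2.16 on the log2 scale. The other 4 lower genes were the phospholipid flippase Atp9a (-1.76), the nuclear co-repressor Ncor1 (-2.31), the GTPase-activating protein Arhgap32 (-2.06) and the chromatin remodeller Chd5 (-1.51). The change was spread along the CDS, since of exon segments with at least 20 counts, 6 of 6 were lower in Bsg, 20 of 20 in Adgrl1, 3 of 3 in Cst3 and 2 of 3 in Ly6h.

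**Figure D2:**
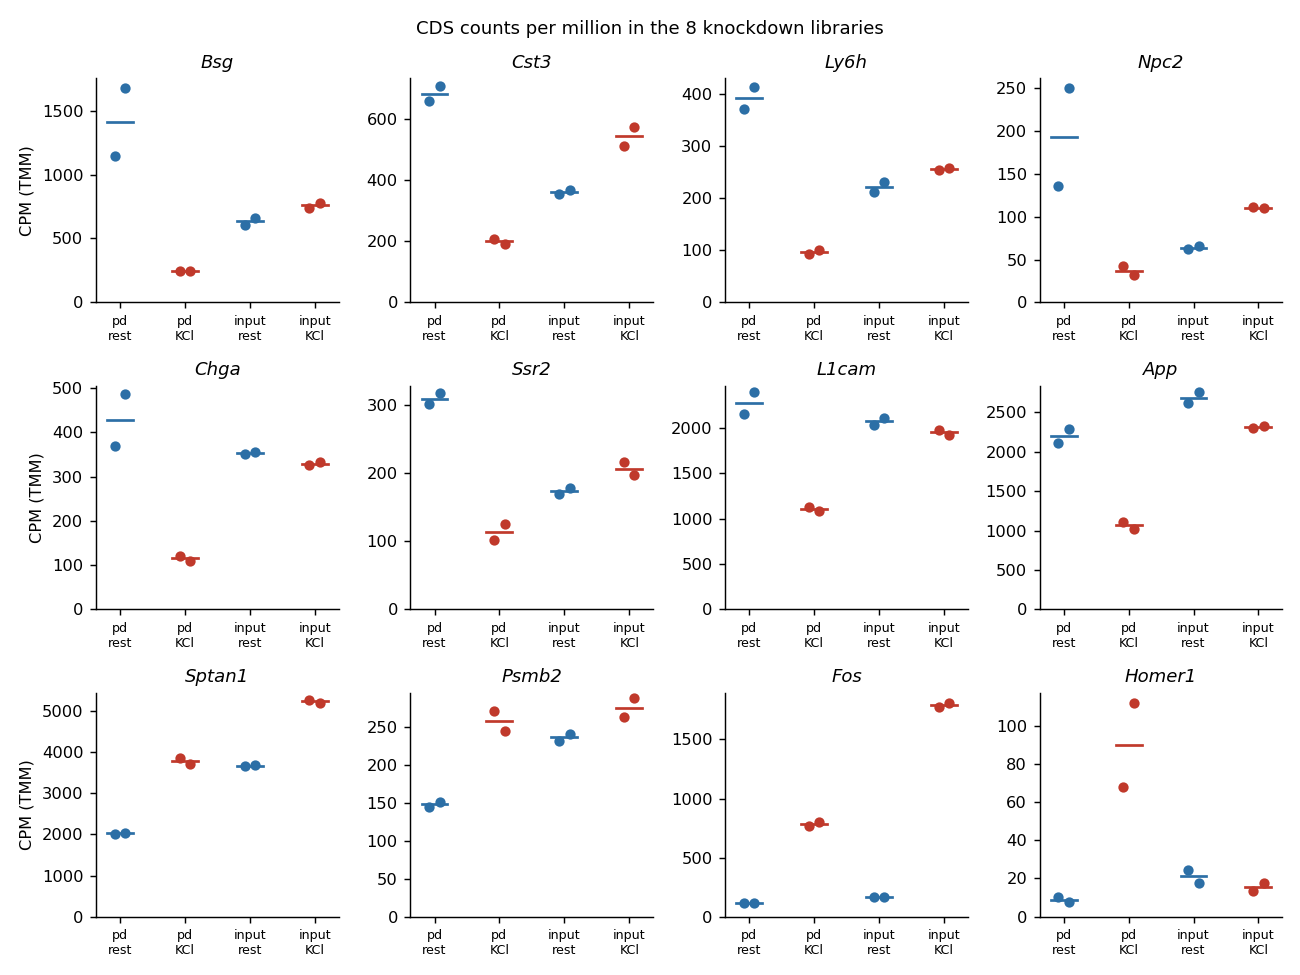
CPM (vertical axes, each starting at 0) of 12 genes in the 4 knockdown pulldowns and the 4 knockdown inputs, with 1 point for each library and a line at the group mean. Bsg, Cst3, Ly6h, Npc2, Chga, Ssr2, L1cam and App are lower after KCl in the pulldowns, and Bsg, Cst3, Ly6h, Npc2 and Ssr2 lie at or above rest in the inputs after KCl, while Sptan1, Psmb2 and Fos are higher in the pulldowns and Homer1 rises there alone.

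Secreted proteins moved in both directions. Of 41 genes of the extracellular matrix and secreted glycoproteins, 13 were lower and 11 higher, and the median log2 fold change was 0.16. The lower ones included proteins of perineuronal nets and proteoglycans, which stabilize synapses, namely Acan, the link protein Hapln1 (-1.98), Ncan (-0.76) and Vcan (-0.48), and the matricellular proteins Sparc (-1.18), Sparcl1 (-1.22) and Spock1 (-1.48). Sparc stood at 913 and 1215 CPM at rest and 499 and 436 CPM after KCl, without overlap. Among the higher ones were nidogen 1 (Nid1, 1.42), tenascin C (Tnc, 0.90), thrombospondin 1 (Thbs1, 0.86), fibronectin (Fn1, 0.67) and perlecan (Hspg2, 0.63). Tnc and Fn1 also rose in the inputs, by 1.41 and 0.68, where the summed astrocyte and fibroblast markers were also higher after KCl, and the part of these cells in the rise was not tested.

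Granins and neuropeptide precursors are cargo of dense-core vesicles that neurons release on activity. Of 32 listed genes 28 were tested, and 11 were lower and 3 higher, with a median of -0.48. Chga, chromogranin A, was at 369 and 487 CPM at rest and at 122 and 109 CPM after KCl (log2 fold change -1.88, SE 0.123, FDR 2.18e-11). Adcyap1, the precursor of the peptide PACAP, was at 40.2 and 65.6 CPM at rest and at 1.6 and 2.92 CPM after KCl (-4.55, SE 0.478). No resting and depolarized value overlapped in either gene. Pcsk1n (proSAAS, -1.67), Scg3 (-0.87), Chgb (-0.82), Scg2 (-0.70), Vgf (-0.65), Scg5 (-0.45) and the activity-regulated neurotrophin Bdnf (-0.80) also fell. The 3 that rose were the pentraxin Nptx1 (1.64), the convertase Pcsk1 (0.75) and the growth factor Vegfa (0.63).

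Of 50 cell adhesion genes, 22 were lower and 4 higher, with a median of -0.34. L1cam, an adhesion protein of axons, went from 2155 and 2399 CPM to 1124 and 1080.1 CPM (log2 fold change -1.05, SE 0.0728, FDR 6.02e-11). Contactin 1 (Cntn1, -1.0), the synaptic adhesion protein Cadm3 (-1.38) and neuroligin 2 (Nlgn2, -0.78), which organizes inhibitory synapses, fell as well, whereas Adgrb1 (0.42), Adgrb3 (0.44), Flrt3 (0.55) and Tenm3 (0.41) rose. Of 47 guidance receptors and receptor kinases 11 were lower (23.4%) and 6 higher (12.8%), beside 12% and 10.2% of all genes tested. The phosphatase Ptpra (-1.48) and the semaphorin receptor Plxna1 (-0.88) fell, and Plxna2 (0.73) and the ephrin receptor Epha4 (0.80) rose.

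Of 41 neurotransmitter receptor genes 11 were lower and 1 was higher, the AMPA receptor subunit Gria1, with 230.0 and 198 CPM at rest and 391 and 395 CPM after KCl (log2 fold change 0.87, SE 0.112, FDR 2.06e-06). Among the lower ones were subunits of GABA receptors, Gabra5 (-0.86), Gabbr1 (-0.74) and Gabbr2 (-0.83), the NMDA receptor subunit Grin2b (-0.37) and the AMPA receptor auxiliary subunits Cacng2 (-1.91) and Cacng8 (-0.80). Of 47 ion channel genes 12 were lower (25.5%) and 5 higher (10.6%), where all genes tested had 12% and 10.2%. Cacna2d1, the alpha2delta subunit of calcium channels, went from 407 and 429 CPM to 138 and 141 CPM (-1.58, SE 0.107), and the pacemaker channel Hcn2 (-1.69) fell, while the sodium channel Scn3a rose by 1.12. Of 43 pumps and transporters 14 were lower, among them the calcium pump Atp2b1 (-0.68), and 6 were higher, among them the amino acid transporter Slc38a2 (1.51) and the glucose transporter Slc2a3 (0.77). Of 17 synaptic vesicle membrane genes tested 5 were lower, with Scamp5 at -0.89, and 3 were higher, with Atp6ap1 at 0.49.

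Genes of the secretory pathway itself were called in both directions. Of 42 genes of ER chaperones, translocon and glycosylation 9 were lower (21.4%) and 4 higher (9.52%), with a median of 0.00. Of all genes tested 12% were lower and 10.2% higher. The subunits of the translocon-associated protein complex Ssr1, with 242 and 276 CPM at rest and 77.3 and 71.5 CPM after KCl (log2 fold change -1.79, SE 0.137), and Ssr2, with 301 and 317 against 102 and 126 CPM (-1.44, SE 0.123), fell together with Ssr4 (-0.77). The disulfide isomerase P4hb (-1.24) fell and the glucosidase Ganab (0.61) rose. Of 32 lysosomal and endosomal genes 6 were lower and 5 higher. Npc2, the lumenal carrier of cholesterol in lysosomes, was at 136 and 251 CPM at rest and at 42.0 and 32.1 CPM after KCl (-2.35, SE 0.222), and prosaposin (Psap, -0.86) and cathepsin B (Ctsb, -0.89) fell. Of 18 genes of the amyloid precursor group 5 were lower and 2 higher. App was at 2116 and 2287 CPM at rest and 1107 and 1027 CPM after KCl (-1.04, SE 0.0716), while its homologue Aplp2 rose from 766 and 747 to 1153 and 1182 CPM (0.63, SE 0.0777). The prion protein gene Prnp (-0.86) and the beta secretase gene Bace1 (-1.05) fell. Few genes of tail-anchored proteins passed the test. Of 34 tested of 37 listed 2 were lower, the syntaxins Stx16 (-1.28) and Stx1a (-0.52, FDR 0.0393), and none was higher, with a median of -0.05. The call of Stx1a was lost in 11 of 19 alternative settings, 7 of which left out 1 library.

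**Figure D3:**
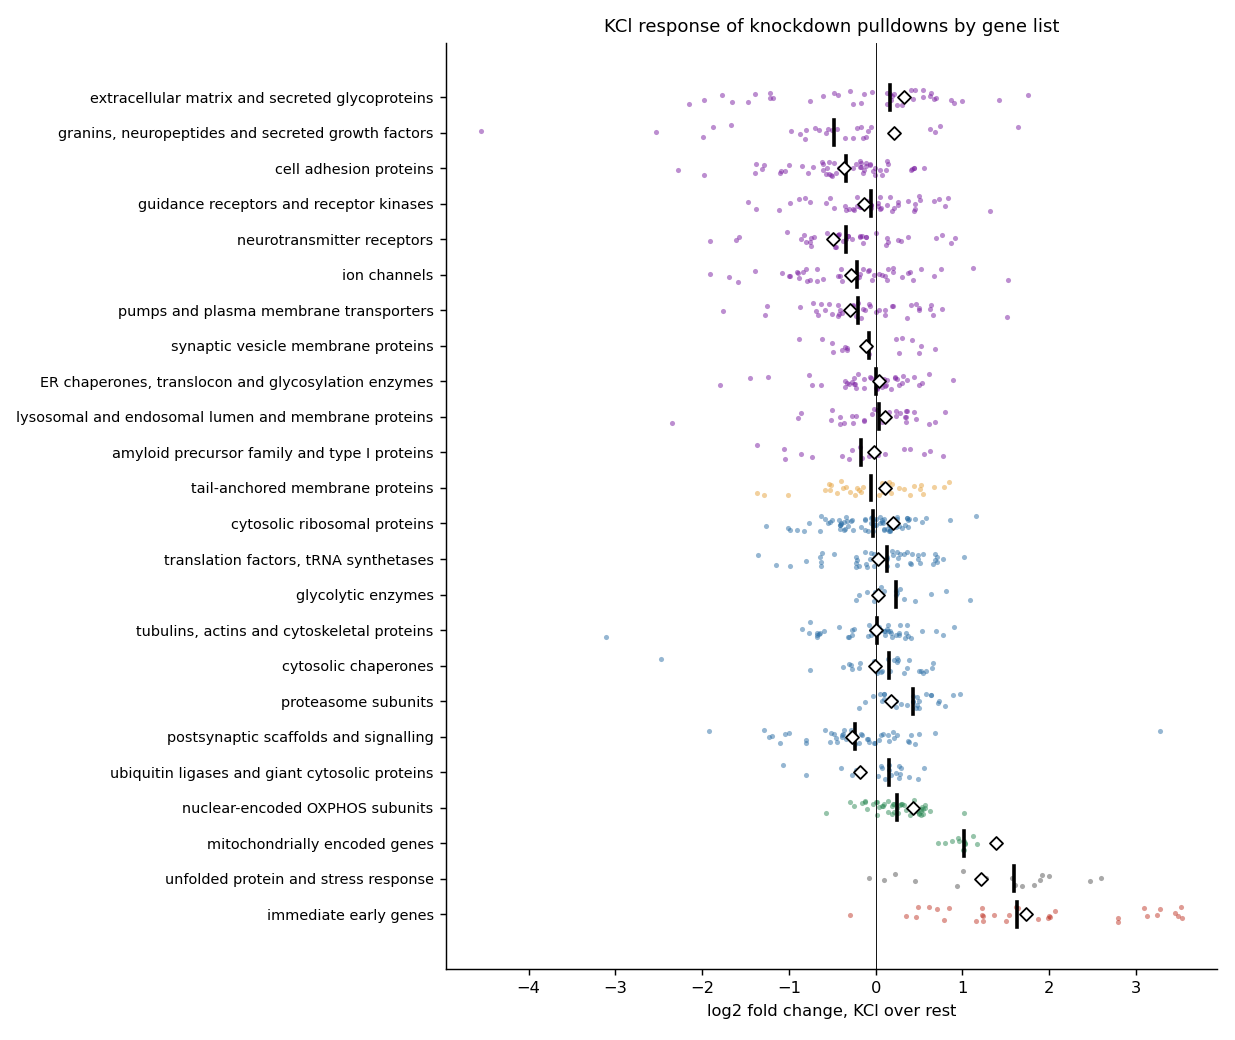
Log2 fold change after KCl (horizontal axis) for the members of each gene list (rows, secretory lists apart from cytosolic and other lists), with 1 dot for each gene in the knockdown pulldowns, a black bar at the pulldown median and a white diamond at the median of the same genes in the knockdown inputs. Granins and neuropeptides have a pulldown median of -0.48 and an input median of 0.21, and proteasome subunits have a pulldown median of 0.43.

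Of 31 proteasome subunits, which degrade ubiquitinated proteins, 15 were higher and none was lower (median log2 fold change 0.43). Psmb2, of the catalytic core, was at 145 and 151 CPM at rest and 271 and 244 CPM after KCl (0.80, SE 0.112, FDR 6.41e-06), and Psmc6, an ATPase of the regulatory particle, rose from 92.0 and 64.2 to 163 and 151 CPM (0.98, SE 0.146). Of 28 cytosolic chaperones 7 were higher, among them Hsph1 (0.66) and the chaperonin subunits Cct8 (0.65) and Cct5 (0.58), and 2 were lower, Fkbp4 (-0.76) and Hspa8 (-0.27). Of 16 glycolytic enzymes 6 were higher, among them Pgam1 (0.82), Eno1 (0.64) and Aldoc (1.09), and none was lower. Aldoc is also on the astrocyte list, whose summed level rose. Of 47 translation factors and aminoacyl-tRNA synthetases 13 were higher and 8 lower. Of the 13 higher ones 11 were synthetases, such as Aars, with 449 and 416 CPM at rest and 875 and 887 CPM after KCl (1.02, SE 0.0848), whereas the elongation factors Eef2 (-0.63), Eef1a1 (-0.63), Eef1a2 (-0.64) and Eef1b2 (-0.99) and the poly(A)-binding protein Pabpc1 (-1.35) fell. Of 74 ribosomal protein genes tested 6 were lower and none was higher, with a median of -0.03. Many ribosomal protein genes have close copies elsewhere in the genome, which makes their counts uncertain. Of 50 cytoskeletal genes 14 were lower, 9 of them tubulins, whose near-identical copies may share reads. Among these tubulins was Tubb3, from 4372 and 4441 to 2570.2 and 2588 CPM (-0.77, SE 0.0628). Another 9 cytoskeletal genes were higher, among them alpha spectrin (Sptan1), from 2002 and 2044 to 3852 and 3718 CPM (0.90, SE 0.0621).

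Scaffolds of the postsynaptic density are cytosolic, and of 49 of these and related genes 16 were lower and 5 higher, with a median of -0.24. The scaffolds Shank1 (-1.23), Shank3 (-1.20) and Dlgap3 (-1.10), the exchange factor Kalrn (-1.92) and the translation regulator Cyfip2 (-1.04) fell. Homer1 was among the 5 higher ones. Its longest transcript in the annotation has a CDS of 561 nt and ends as the short form, which activity induces and which uncouples receptors from scaffolds. Its exons 1 to 4 and the start of its exon 5 also belong to longer transcripts, so its value is not specific to the short form. Counts over this CDS were at 10.3 and 7.53 CPM at rest and 67.7 and 112 CPM after KCl (log2 fold change 3.27, SE 0.310, FDR 1.55e-08), but at 24.4 and 17.7 CPM against 13.6 and 17.8 CPM in the inputs (-0.44, FDR 0.329). The difference of the responses was 3.72 (SE 0.427, FDR 2.27e-06). The counts were unevenly spread along its exons, with 8 and 7 at rest and 97 and 108 after KCl in the pulldowns for the shared exon 4 (mm10 chromosome 13, 93349205 to 93349297). Exon 5 (93355940 to 93356113) had 18 and 2 at rest and 27 and 81 after KCl, so the 2 libraries of each group differed widely there. The last exon of the long form (93402041 to 93402229) had 24 and 14 against 4 and 2. With the transcript of highest count the pulldown value was 2.07.

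Immediate early genes, transcription factors and regulators that neurons induce first, were for the most part higher. Of 34 listed 28 were higher, 6 did not pass the test and none was lower (median log2 fold change 1.63), and in the inputs 30 were higher, with a median of 1.74. Fos was at 114 and 113 CPM at rest and 771 and 798 CPM after KCl (2.79, SE 0.0896, FDR 1.35e-17), Nr4a1 at 94.8 and 114 against 1004 and 955 CPM (3.25, SE 0.105), and Nr4a2 at 19.7 and 34.6 against 309 and 265 CPM (3.48, SE 0.180). Other genes with the smallest p were Egr1 (2.8), Egr2 (3.54), Fosb (3.52), Junb (3.09), Ier2 (3.46), the salt-inducible kinase Sik1 (2.03) and the inositol hexakisphosphate kinase Ip6k2 (1.9). Arc, whose protein acts at the postsynaptic density, was at 9.18 and 9.30 CPM at rest and 37.6 and 18.5 CPM after KCl (1.62, SE 0.347, FDR 0.00116). Its call rested on KD_pd_Dep replicate 1, without which the value was 0.99 (FDR 0.0848). Among 16 tested of 18 genes of the unfolded protein and integrated stress responses, 11 were higher and none was lower, with a median of 1.59. In the inputs 13 were higher, with a median of 1.21, and in the untreated pulldowns 6 of 17, with a median of 1.26. For none of them did the difference between knockdown and untreated pulldowns pass. The ER chaperone gene Hspa5 did not pass in the knockdown pulldowns (0.22, FDR 0.0621). Atf4, the transcription factor whose translation rises when initiation is limited, went from 30.5 and 28.4 to 164 and 165 CPM (2.47, SE 0.158), and its targets Sesn2 (2.60), Herpud1 (1.58) and Psat1 (1.01) rose with it.

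Genes encoded in mitochondria rose as a group, 13 of 13, with a median of 1.02 in the pulldowns and 1.39 in the inputs. mt-Co1, a subunit of cytochrome oxidase, was at 3841 and 3079 CPM at rest and 7909 and 7672 CPM after KCl (1.17, SE 0.0784, FDR 3.06e-11). Their share of CDS footprints was 0.997% and 0.896% at rest and 1.87% and 2.06% after KCl. In the untreated pulldowns none of the 13 passed the test and the median was -0.08, while the difference between knockdown and untreated pulldowns passed for none of them, with mt-Co1 at 1.20 (FDR 0.428). Of 45 nuclear-encoded subunits of oxidative phosphorylation 15 were higher, among them Atp5b (0.45) and Ndufs1 (0.57), and none was lower. Their median was 0.25, against 0.43 in the inputs, where 28 were higher, and 0.61 in the untreated pulldowns, where 4 were higher. For none of them did the difference between knockdown and untreated pulldowns pass.

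To ask which of these changes differed from those of all ribosomes, the response of the knockdown pulldowns was set against that of the knockdown inputs. In the inputs 1089 genes (8.91%) were higher and 1264 (10.3%) lower after KCl, or 477 to 591 and 695 to 796 without any 1 input library. The difference of the responses, tested as an interaction, passed for 461 genes (3.77%), 183 (1.5%) that moved up in the pulldown relative to the input and 278 (2.27%) that moved down. These counts were 43 to 94 and 123 to 172 without any 1 input library (lowest without KD_in_Dep replicate 2), 120 and 211 without KD_pd_Rest replicate 2, and 280 and 371 without KD_pd_Dep replicate 2. Of the 406 secretory and membrane genes 12 were in the first group and 40 in the second, and of the 314 cytosolic genes 32 and 13. These counts moved with the setting, over 15 settings from 2 to 28 and 26 to 42 for the secretory and membrane genes and from 9 to 43 and 3 to 18 for the cytosolic ones. Without KD_in_Dep replicate 2 they were 2 and 26, and 9 and 3, and without KD_pd_Dep replicate 2 they were 28 and 41, and 43 and 17. The median difference was 0.05 for the secretory and membrane genes, opposite in sign to the larger count of calls, and 0.11 for the cytosolic ones, beside 0.02 for all genes. For adhesion proteins and receptors the medians were below 0 in pulldown and input, and no difference passed in Adgrl1 (input -2.41, difference 0.13, FDR 0.771) and Cacna2d1 (input -1.68, difference 0.10, FDR 0.795), which fell in both. Their medians in the inputs were -0.37 for adhesion proteins and -0.49 for neurotransmitter receptors. Granins and neuropeptides had 10 of 28 genes with a negative difference and none with a positive one, and extracellular matrix genes 11 of 41 and none.

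Cst3 had the smallest p of the difference. In the inputs it rose from 355 and 367 to 513 and 574 CPM (log2 fold change 0.59, SE 0.0909, FDR 3.24e-05), where in the pulldowns it had fallen, and the difference was -2.36 (SE 0.134, FDR 1.78e-11). Both depolarized inputs lay above both resting ones, and both depolarized pulldowns below. Bsg had 605 and 663 CPM in the resting inputs and 741 and 782 CPM after KCl (0.26, FDR 0.109), for a difference of -2.80 (SE 0.166), and Ly6h a difference of -2.24 (SE 0.156). At rest Bsg was higher in the pulldowns than in the inputs, and after KCl lower. Npc2 (input 0.80, difference -3.15), Igfbp5 (0.77, -2.16), Sparc (0.61, -1.79), Pcsk1n (0.77, -2.44) and Prnp (0.41, -1.27) likewise passed in the inputs as higher and in the pulldowns as lower. On the positive side were Homer1, the importin Ipo5 (pulldown 0.31, input -0.59, difference 0.91, SE 0.134) and the tubulin Tubb5. Tubb5 fell from 4739 and 4904 to 3195 and 3173 CPM in the pulldowns but from 4770.0 and 4815 to 2072 and 1982 CPM in the inputs, and the difference was 0.64 (SE 0.0874). Among cytosolic groups, whose positive calls were fewer without KD_in_Dep replicate 2, 7 proteasome subunits, 7 chaperones and 6 of 20 ubiquitin ligases and giant proteins had a positive difference. Examples were Cct8 (input 0.01, difference 0.64) and the ubiquitin-activating enzyme Uba1 (input 0.00, difference 0.56). Of 50 cytoskeletal genes 8 had a positive and 3 a negative difference, and of 49 postsynaptic ones 2 and 4. Negative differences were also seen in 1 proteasome subunit and in 5 of 74 ribosomal protein genes, none of which had a positive one.

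**Figure D4:**
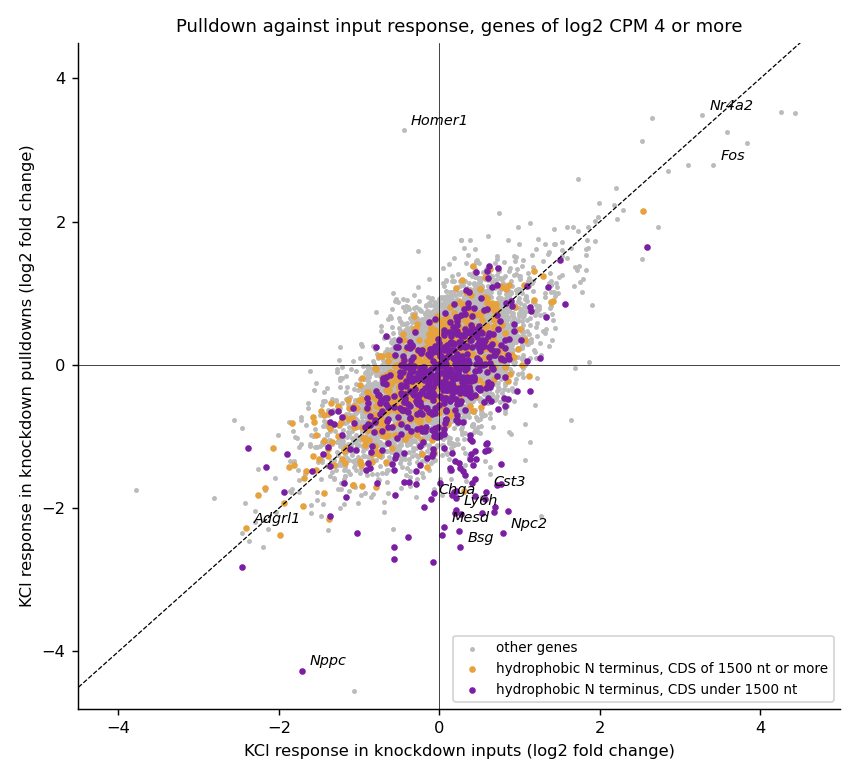
Log2 fold change after KCl in the knockdown inputs (horizontal axis) against that in the knockdown pulldowns (vertical axis), with 1 point for each gene of a mean log2 CPM of at least 4, genes with a hydrophobic N terminus coloured by CDS length (under 1500 nt, or 1500 nt or more), and a dashed line of equal change. Bsg, Cst3, Ly6h and Npc2 lie at or above 0.21 in the inputs and at or below -1.77 in the pulldowns, and Homer1 lies at 3.27 in the pulldowns and -0.44 in the inputs.

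The hydrophobic stretch allowed a class to be given to genes on no list. It was computed after the protein table foreseen for it was found not to be at hand, from the CDS translated from the genome, and its use with CDS length was chosen after the data had been seen. Of 12223 genes tested, 1940 had a hydrophobic N terminus, 2260 an internal hydrophobic segment alone and 7655 neither. Another 241 were mitochondrial by name and the rest had no ATG at the deposited start or a CDS that was not read. An internal segment was 19 residues beginning after residue 30 with a mean hydropathy of at least 1.6. The class with this segment alone is not one of membrane proteins only, since it held 16 of 20 listed ubiquitin ligases and giant cytosolic proteins. It also held 42 of 47 listed ion channels and 35 of 43 pumps and transporters. In the knockdown pulldowns 313 (13.8%) of its 2260 genes fell and 225 (9.96%) rose (median -0.03), beside 12% and 10.2% of all genes tested. Its difference from the inputs passed for 38 genes as positive and 37 as negative. Of the 1940 genes 378 (19.5%) were lower in the knockdown pulldowns and 157 (8.09%) higher, and the median log2 fold change was -0.15. Of the 7655 genes with neither, 753 were lower and 804 higher (median 0.04). Of the 278 genes with a negative difference from the inputs 106 (38.1%) were of this class, a count that was 63 in the fit without KD_in_Dep replicate 2. Genes with a hydrophobic N terminus and no internal segment, the pattern of secreted proteins, held 71 of these 106 calls among 820 genes and had an input median of 0.12 against -0.16 in the pulldowns.

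Within this class the values differed with CDS length. With a CDS under 750 nt, 364 genes had a median of -0.18 in the pulldowns (61 lower, 15 higher) and of 0.26 in the inputs (7 lower, 49 higher), and 41 had a negative and none a positive difference. Without any 1 input library the input counts were 2 to 4 lower and 21 to 25 higher, and over 15 settings the negative differences numbered 26 to 49 and the positive ones 0. From 750 nt to below 1500 nt, 49 of 683 genes had a negative difference and 2 a positive one, and with 3000 nt or more, 7 and 6 of 268. Genes of the same short length without a hydrophobic segment had medians of 0.19 in the pulldowns and 0.33 in the inputs, and 23 of 1772 had a negative difference (6 to 48 over the settings, lowest without KD_in_Dep replicate 2). At 3000 nt or more, 219 of 973 genes without a hydrophobic segment were lower in the pulldowns (22.5%) and 121 higher. With a hydrophobic N terminus 51 of 268 genes of that length were lower (19%) and 35 higher. Among the 973 genes 41 had a negative difference and 17 a positive one. Over all genes, which are not independent replicates, Spearman's correlation of CDS length with the response was -0.06 in the pulldowns, -0.24 in the inputs and 0.14 for the difference. After a trend with CDS length had been taken out of every library, 275 genes had a negative difference in place of 278, and 128 a positive one in place of 183. As levels, short genes with a hydrophobic N terminus had a median log2 ratio of pulldown over input (CPM + 1) of -0.24 at rest and -0.74 after KCl, against -0.94 and -1.07 for short genes without one. In the untreated libraries the ratios were -0.51 and -0.40 for the short class with a hydrophobic N terminus and -0.88 and -0.68 for the short genes without one. These ratios describe 349 and 1755 genes and carry no test.

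**Figure D5:**
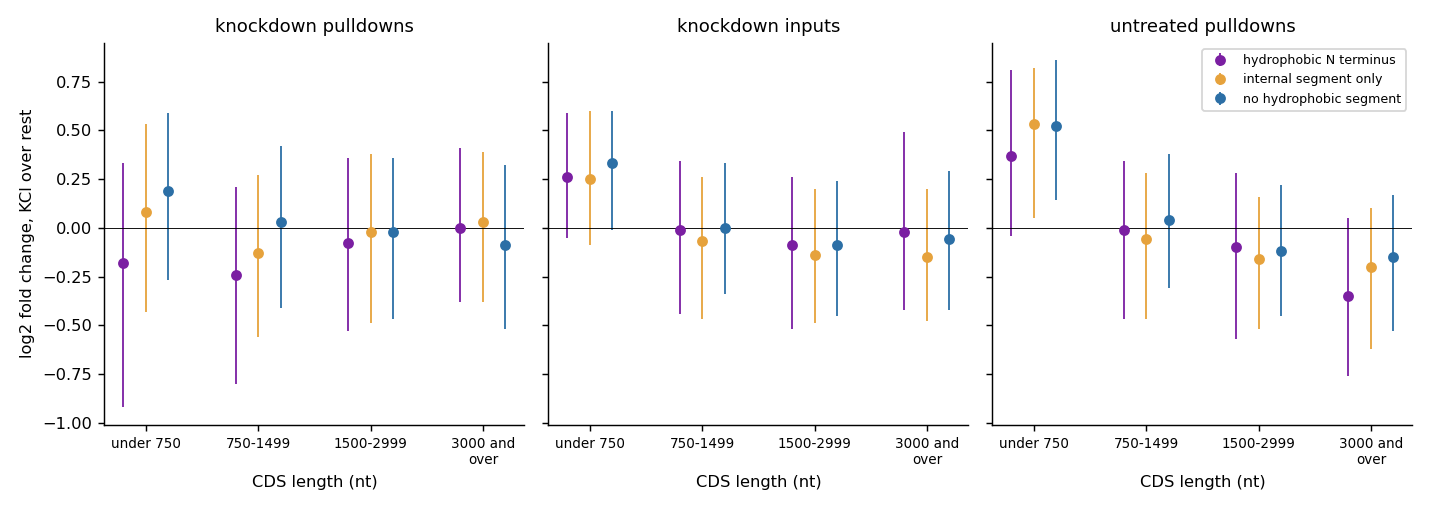
Median log2 fold change after KCl (vertical axis) in 4 classes of CDS length in nt (horizontal axis), for genes with a hydrophobic N terminus, with an internal segment alone and with no hydrophobic segment, in knockdown pulldowns, knockdown inputs and untreated pulldowns, with bars from the lower to the upper quartile of the genes. Under 750 nt the medians of genes with a hydrophobic N terminus are -0.18, 0.26 and 0.37 in these 3 panels.

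The same stimulus was applied to neurons without siRNA. In the untreated pulldowns 489 of 12650 genes (3.87%) passed the test, 243 (1.92%) as higher and 246 (1.94%) as lower. These counts rested on single libraries, with 955 and 551 without DEP_PSD95_pd replicate 1, and between 75 and 129 higher and between 94 and 139 lower without DEP_PSD95_pd replicate 3 or any 1 of the 3 resting pulldowns. The fit had no block for replicate, and with such a block 431 genes were higher and 449 lower. With a hydrophobic N terminus and a CDS under 750 nt, 16 of 380 genes were higher and none was lower there, with a median of 0.37. Short genes with no hydrophobic segment had 91 of 1870 higher and 1 lower, with a median of 0.52, so higher values there went with a short CDS in both classes. The difference between the responses of knockdown and untreated pulldowns passed for 2 of 13180 genes (0.0152%) on the higher side and 57 (0.432%) on the lower side. Of the 57, 36 (63.2%) had a hydrophobic N terminus, a class with 16.6% of the genes tested, and 17 of these 36 had a CDS under 750 nt. Among listed secretory and membrane genes 12 of 411 were lower and none higher, and among cytosolic ones none of 316 passed. The counts of both lists moved with the setting. Knockdown and experiment cannot be told apart here. Without the untreated library DEP_PSD95_pd replicate 1, 126 genes were lower and 17 higher, and 62 of the 126 had a hydrophobic N terminus. The class held 18 lower genes without KD_pd_Rest replicate 2 and 23 without either KD_pd_Dep replicate 1 or KD_pd_Dep replicate 2. Over 17 settings its count ran from 18 to 68, and that of its members under 750 nt from 10 to 29.

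Bsg had a difference of -2.93 (SE 0.318, FDR 3.03e-05). In the untreated pulldowns it was at 447, 601 and 557 CPM at rest and 508, 858 and 771 CPM after KCl, so those groups overlapped, and its untreated fold change was 0.41 (FDR 0.324). Its level in the resting knockdown pulldowns, 1146 and 1682 CPM, lay above all 6 untreated values, which are scaled in another fit. Nppc, the precursor of C-type natriuretic peptide, fell from 129.9 and 197 to 6.41 and 10.7 CPM with knockdown (log2 fold change -4.27, SE 0.282) and from between 20.8 and 28.0 to at most 13.9 CPM without, for a difference of -3.26 (SE 0.412, FDR 0.000256). Its groups did not overlap in either experiment. Mesd, a chaperone of the ER, fell from 141 and 175 to 25.6 and 40.4 CPM with knockdown, and was at 41.6 to 52.5 CPM at rest and 59.2 to 91.9 CPM after KCl without, for a difference of -2.84 (SE 0.371). With knockdown both Nppc and Mesd started above all untreated resting values, which are scaled in another fit. Other lower genes, picked after their values were seen, included the metalloproteinase inhibitor Timp2 (-2.55), Cst3 (-2.19), Npc2 (-3.31), Chga (-1.84), Ssr1 (-2.13), Ssr2 (-1.93), the ER membrane complex subunit Emc7 (-2.66) and beta-2-microglobulin (B2m, -2.72). Nr4a2 was the clearest on the higher side (2.45, SE 0.401, FDR 0.00218), with 81.7 to 157 CPM at rest and 226 to 249 CPM after KCl in the untreated pulldowns. Its resting level with knockdown, given above, lay below all these resting values. After KCl its knockdown values lay closer to the untreated ones, a little above them. Nelfcd, a subunit of the negative elongation factor, was the other gene on the higher side (1.55, SE 0.341, FDR 0.0354), and its call was lost in 5 of 10 fits that left out 1 library.

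Footprints in the 5′ untranslated regions (5′ UTRs) of the same transcripts were counted apart from the CDS. Since 5′ ends were counted with no offset, ribosomes on the first codons of a CDS place their counts in the 5′ UTR, so the 2 readouts are not independent. Of 8062 genes tested there, 37 (0.459%) passed the test, 36 (0.447%) as higher and 1 (0.0124%) as lower after KCl in the knockdown pulldowns. The split moved with the setting, to 69 higher and 50 lower without KD_pd_Rest replicate 1, 118 and 8 without KD_pd_Rest replicate 2, 50 and 6 without KD_pd_Dep replicate 1, 42 and 5 without KD_pd_Dep replicate 2, and 31 and 11 with TMM factors from the 5′ UTR counts. Of these 37 genes 26 were called in the CDS in the same direction and none in the opposite one. They were led by immediate early genes, Fosb (log2 fold change 3.83, SE 0.243), Nr4a2 (4.51, SE 0.375), Junb (2.88, SE 0.240) and Fos (2.5, SE 0.212), and by Ppp1r15a (3.36, SE 0.409), which restores translation after stress. Genes with a hydrophobic N terminus had a median of 0.06 in their 5′ UTRs (1240 genes), close to 0.09 for genes with no hydrophobic segment (5171 genes).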

How the data were processed

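The deposited files hold whole-number counts of footprints per transcript region, made by the authors with plastid counts_in_region after trimming, removal of rRNA and duplicates, and alignment with Rsubread to mm10. Per the file headers, 5′ ends were counted with no offset at a read length of at least 25 nt. Strand and multi-mapping are not given in the sources used here, and a footprint in an exon shared by overlapping genes counts in each. CDS segments of the longest transcript were summed per gene (22443 genes, 99.3% of coding transcripts matched). Counts were tested with edgeR 4.0.16 (TMM, filterByExpr, robust quasi-likelihood) in R 4.3.3 with 4 group means over the 8 knockdown libraries, over the 12 untreated libraries, and jointly over 20. DESeq2 1.42.0 and limma 3.58.1 served as alternatives. On simulated data with 50 genes changed at each fold, 53.1% of 2-fold and 76% of 3-fold changes were recovered in the knockdown pulldowns (11930 genes). There were 11 false calls, and the share of changed genes was far smaller than the share called in the data. Totals were 8367290 to 14979205 counts a pulldown. Named genes were the 10 called genes per direction of smallest p whose groups did not overlap, up to 4 per list, Eif4g2, Dlg4 and Arc, and the 3 with the smallest p per direction in each difference test. Other members are named after their values were seen. Members and lists were chosen with earlier results of these data known. Deposited RPKM columns and other libraries were not used. Some list members are counted but not reported here by name.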

Additional observations from a re-analysis of the deposited data

Results flagged for a closer look

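In the knockdown libraries the KCl response differed between pulldown and input, by the interaction test of edgeR, in the genes given here, the 3 of smallest p in each direction. Homer1 (3.72, SE 0.427, on the log2 scale), Ipo5 (0.91, SE 0.134) and Tubb5 (0.64, SE 0.0874) were on the positive side, and Bsg (-2.80, SE 0.166), Cst3 (-2.36, SE 0.134) and Ly6h (-2.24, SE 0.156) on the negative side.

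Between knockdown and untreated pulldowns the genes given here had the smallest p among those whose response differed, 2 on the positive side and 3 on the negative side. Nr4a2 (2.45, SE 0.401) and Nelfcd (1.55, SE 0.341) were positive, and Bsg (-2.93, SE 0.318), Nppc (-3.26, SE 0.412) and Mesd (-2.84, SE 0.371) negative. Knockdown and experiment cannot be told apart in these values.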

How the results depend on the processing

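Among values of named genes recomputed under an alternative, 2156 kept direction and side of the threshold, 21 lost the call and 0 reversed. Many of these genes were picked for the smallest p in the main fit of the same libraries, so few losses were likely in advance. With the replicate block, 1229 genes were higher and 1459 lower in the knockdown pulldowns (1242 and 1469 without), 205 and 301 differed between pulldown and input, and replicate numbers did not pair the libraries (correlations -0.026 to 0.059 over 7762 genes). With the 4 pulldown libraries alone 815 were higher and 1051 lower, and 1866 of the 2711 calls were kept. Upper quartile scaling gave 1528 higher and 1261 lower. Leaving out 1 library gave 477 to 591 higher and 695 to 796 lower in the inputs, 43 to 280 and 123 to 371 for pulldown minus input (lowest without KD_in_Dep replicate 2, highest without KD_pd_Dep replicate 2), 75 to 955 and 94 to 551 in the untreated pulldowns, 1 to 17 and 25 to 126 for knockdown minus untreated, and 42 to 118 and 5 to 50 in the 5′ UTRs. For knockdown minus untreated, the counts were 17 and 126 without DEP_PSD95_pd replicate 1, 1 and 31 without KD_pd_Dep replicate 1, 1 and 35 without KD_pd_Dep replicate 2, and 2 and 25 without KD_pd_Rest replicate 2. The likelihood ratio test gave 283 higher for pulldown minus input, 505 and 479 in the untreated pulldowns, and 27 and 123 for knockdown minus untreated. For the last 2 comparisons DESeq2 gave 571 and 496, and 29 and 110, and the replicate block 431 and 449, and 5 and 93. limma-voom gave 41 and 102 for knockdown minus untreated. In the 5′ UTRs 2 genes were lower with the replicate block and 11 with TMM factors of their own. Median log2 fold changes without 1 library ran from -0.24 to -0.11 for the secretory lists, -0.23 to -0.10 for a hydrophobic N terminus, -0.23 to -0.09 for those without an internal segment and 0.00 to 0.06 for no segment. With the CDS length trend removed the cytosolic lists had a median of 0.02. The share of genes with a hydrophobic N terminus differed by -2.13 percentage points. Sequence classes, length classes, the length trend for difference tests and the block within condition were added after seeing the data. The causes of these shifts were not tested.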
